A study of Mus musculus with 48 samples.

Results

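A set of 8 genes of fetal liver and of imprinted loci was followed through the livers of 48 mice of the FCG model, which separates sex chromosomes from gonads: H19, Igf2, Afp, Gpc3, Cd24a, Ly6d, Meg3 and Tff3. They were selected on the fitted gonadectomy differences, around the rise of H19, so the comparisons of gonadectomized with intact mice are given for them as a description, with no p-value and nothing read from how many passed a threshold. The 8 genes are rows of a count table of 55414 genes, and 7 of the 8 were among the 15414 genes abundant enough to be tested. Igf2 was not, with 21 reads in all 48 mice together and at most 3 in any one of them.

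The mice formed 8 groups of 6, from 4 genotypes, each with intact gonads or gonadectomized (GDX). The genotypes were XX with ovaries (XX Ov), XX;SryTg with testes (XX Te), XY- with ovaries (XY Ov) and XY-;SryTg with testes (XY Te). Sry is deleted from the Y chromosome written XY-, and the SryTg transgene sits on an autosome, so testes arise in carriers of either sex chromosome type. The strain background was C57BL/6, and every mouse received a diet with 60% of calories from fat from 15 to 17 weeks of age. Intact mice were on the diet for 11 weeks. GDX mice, operated on at 75 days of age, were on it for 15 weeks, so gonadectomy and time on the diet cannot be told apart. These are the durations in the labels, and the methods of the study give slightly different ones for both cohorts. XX and XY mice differ in both the second X and the Y, and these cannot be told apart either.

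Each library came from the liver of one mouse and held 13071874 to 20045141 reads in genes (median 16577748). One read was therefore worth little, and 3 reads, used here as the floor, correspond to 0.15 to 0.230 CPM, the reads of a gene scaled to the reads counted on all genes. Xist was higher in all 24 XX mice than in any XY mouse, and all 4 Y-linked genes examined separated the mice the opposite way. The share of reads that mapped outside annotated genes was 3.47 to 6.20% in intact mice and 8.52 to 11.3% in GDX mice, and among GDX mice it was 8.52 to 10.1% in XX and 9.98 to 11.3% in XY mice. Alb, the hepatocyte albumin gene, had a median of 80070 CPM.

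H19 is a maternally expressed long noncoding RNA, abundant in the fetal liver and largely shut down after birth, and its transcript is the precursor of the microRNA miR-675. Igf2, its paternally expressed neighbour, encodes a fetal growth factor, and CTCF bound between the genes separates them on the maternal chromosome. Afp encodes alpha-fetoprotein, the fetal counterpart of albumin, and Gpc3 encodes glypican 3, a heparan sulfate proteoglycan of the cell surface. Both are silenced in adult liver and can return in regeneration and liver cancer, and Zhx2 and Zbtb20 encode repressors linked to that silencing. Cd24a and Ly6d encode small surface proteins held by a lipid anchor, Meg3 is a maternally expressed noncoding RNA, and Tff3 encodes a trefoil peptide of mucous and ductal epithelia.

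In the NCBIM37 assembly, an older build than that of the counts, H19 lies on chromosome 7 from 149761434 to 149764048 on the minus strand, and the end of H19 and the start of Igf2 are 72.6 kb apart. Gpc3 lies on the X chromosome. Both arms of miR-675 are shown because they are what the H19 exon encodes as a short RNA. They were read from RefSeq (GRCm38.p6, chromosome 7, 142577064 to 142577147, minus strand), with the seed, bases 2 to 8, in capitals.
miR-675-5p: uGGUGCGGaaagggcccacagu
miR-675-3p: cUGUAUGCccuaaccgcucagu
Each seed occurred in 1 of 1738 mature mouse sequences in the table. In the NCBIM37 annotation the hairpin falls within exon 1 of the 5-exon transcript H19-001. The libraries did not measure microRNAs, so the values below are for the H19 transcript.

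RefSeq promoters were listed for 4 of the 8 genes (Igf2, Afp, Gpc3 and Meg3). Those of Afp and Gpc3 are shown because both genes were higher in XX than in XY mice, from very different sequence. The 250 bases before each start are given (GRCm38.p6, Afp at chr5:90490464-90490713 on the plus strand, Gpc3 at chrX:52613975-52614224 on the minus strand), with the matched motifs in capitals.
Afp: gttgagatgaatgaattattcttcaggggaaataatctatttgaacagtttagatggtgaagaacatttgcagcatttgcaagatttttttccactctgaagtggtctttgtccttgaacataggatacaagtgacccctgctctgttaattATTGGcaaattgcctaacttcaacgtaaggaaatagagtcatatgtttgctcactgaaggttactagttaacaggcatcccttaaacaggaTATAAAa
Gpc3: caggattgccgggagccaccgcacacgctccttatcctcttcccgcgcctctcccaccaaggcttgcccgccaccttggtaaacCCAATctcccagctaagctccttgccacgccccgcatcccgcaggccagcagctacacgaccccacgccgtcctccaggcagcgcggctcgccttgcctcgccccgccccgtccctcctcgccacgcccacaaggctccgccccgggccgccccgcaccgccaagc
The Afp stretch had a GC content of 36.0% and 1 CpG, and that of Gpc3 71.6% and 25 CpG. The motifs searched on both strands were TATAAA and CCAAT, which did not overlap in these stretches. CCAAT lay on the reverse strand of the Afp promoter from -98 to -94, and on the forward strand of Gpc3 from -166 to -162. Of the 32851 promoters of 300 bases, 37.4% held it. TATAAA ended 2 bases before the Afp start, and 13.6% of promoters held it. A match of letters is not evidence of binding.

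H19 varied more between mice of one group than nearly any other gene. Its biological coefficient of variation, the part of the spread between mice that is not counting error, was 1.01, and 99.8% of tested genes had a smaller one (median 0.198). Most livers held traces of it, and a few held a great deal. Of the 10 mice with more than 100 H19 reads, 8 were XX GDX, 1 was XX Intact and 1 was XY GDX.

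**Figure D1:**
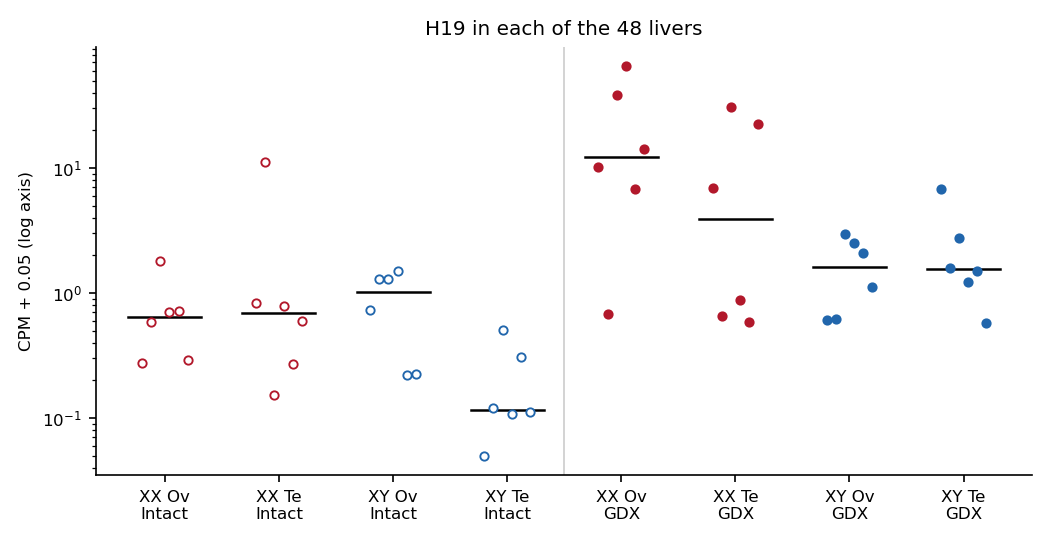
H19 level in each mouse, as CPM plus 0.05 on a log axis, by group. Points are mice (red XX, blue XY, open intact, filled GDX) and black lines are medians of 6 mice. The highest points belong to XX Ov GDX and XX Te GDX, which also hold mice near 0.6 CPM.

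In XX Ov GDX livers H19 ran from 0.632 to 65 CPM with a median of 12.2 CPM, and in XX Te GDX livers from 0.534 to 30.6 CPM with a median of 3.86 CPM. In XY Ov GDX livers it ran from 0.561 to 2.91 CPM (median 1.56 CPM), and in XY Te GDX livers from 0.522 to 6.81 CPM (median 1.49 CPM). The lowest mice of the 4 GDX groups lay close together, and 7 of the 12 XX GDX mice lay above every XY GDX mouse.

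Among intact mice the H19 medians were 0.596 CPM in XX Ov, 0.645 CPM in XX Te, 0.963 CPM in XY Ov and 0.0658 CPM in XY Te. The XY Te Intact group was the lowest, with 15 reads in all 6 livers and 4 livers under 3 reads. Its mice 1, 2, 3 and 4 had larger shares of unmapped reads (11.7, 16.5, 14.3 and 12.5%) than any other library (at most 11.0%). Their multimapping shares, 16.2 to 18.9%, were also the largest (at most 14.4% elsewhere). Mice 5 and 6 had 8.42 and 9.65% unmapped reads, and mouse 6 was among the 4 livers under 3 H19 reads. The part of these shares in the levels of this group, which enters the comparisons of intact mice, was not tested. The XX Te Intact group held 1 mouse at 11.1 CPM, while its other 5 mice were at or below 0.787 CPM. Neighbouring groups in the order of medians overlapped in range at every step.

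The first question put to these genes was whether their levels follow the sex chromosomes. H19 was 2.46 ± 0.51 log2 units higher in XX than in XY livers (fitted difference ± SE over 48 mice, 5.49-fold, adjusted p = 1.25e-04, edgeR quasi-likelihood test). The difference was 3.14 ± 0.60 among GDX mice (adjusted p = 4.43e-05) and 1.78 ± 0.85 among intact mice, where it missed the threshold of 0.05 (adjusted p = 0.189). The set was chosen around the rise of H19 after gonadectomy, which was largest in XX Ov mice. The H19 value among GDX mice is therefore not independent of that choice. In whole liver, more cells of a type and more RNA per cell cannot be told apart, for this and the following values. Pooled over all groups the H19 median was 0.763 CPM in the 24 XX mice and 0.874 CPM in the 24 XY mice, although within GDX mice it was 8.51 against 1.49 CPM and within intact mice 0.602 against 0.217 CPM. Without the single high XX Te Intact mouse the difference was 0.70 among intact mice and 1.92 over all mice, and the second still passed (adjusted p at most 0.00191 over all 48 fits that each left out 1 mouse).

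Ly6d, which marks early B lineage cells and some epithelia, followed the same direction. It ran from 2.7 to 23.9 CPM in XX Ov GDX livers (median 13.1 CPM), against 1.07 to 4.43 CPM in XY Ov GDX (median 2.71 CPM). In XX Te GDX livers it ran from 1.53 to 32.6 CPM (median 4.05 CPM), against 0.805 to 2.87 CPM in XY Te GDX (median 1.80 CPM). Of the 12 XX GDX mice, 8 lay above every XY GDX mouse.
Intact XX Ov and XX Te livers had Ly6d medians of 6.06 and 6.14 CPM, XY Ov livers 3.83 CPM and XY Te livers 0.749 CPM. Ly6d was 2.06 ± 0.36 log2 units higher in XX livers over all 48 mice (4.18-fold, adjusted p = 8.36e-06). The difference was 2.31 ± 0.50 in GDX mice (adjusted p = 2.62e-04) and 1.82 ± 0.51 in intact mice (adjusted p = 0.0145). In intact mice it fell to 1.25 (adjusted p = 0.0757) without the XX Te Intact mouse that was also high for H19.

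Afp changed little in size but was measured tightly, with a coefficient of variation of 0.183. It was 0.40 ± 0.09 log2 units higher in XX livers (1.32-fold, adjusted p = 3.24e-04), with 0.43 ± 0.13 in intact mice (adjusted p = 0.0223) and 0.37 ± 0.12 in GDX mice (adjusted p = 0.0153). Individual livers overlapped: Afp ran from 2.10 to 5.08 CPM in XX Intact and from 1.74 to 4.01 CPM in XY Intact mice. Scaled to library totals, the difference among GDX mice was 0.20 log2 units (adjusted p = 0.303) and no longer passed. XX and XY GDX libraries differed in their scaling factors, with medians of 1.02 and 1.15.

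Gpc3 was near the floor, with a median of 0.345 CPM over 48 mice and at least 10 reads in 13 mice. Its reads peaked at 5 in XY Ov Intact, 9 in XY Ov GDX, 11 in XY Te Intact and 17 in XY Te GDX livers. The peaks were 23 in XX Ov Intact and 21 in XX Ov GDX livers, and 13 in both XX Te Intact and XX Te GDX livers. Gpc3 had enough reads in few livers, with the highest reads in XX Ov livers. Its fitted differences are therefore given as a description with no p. Its level was 0.90 ± 0.26 log2 units higher in XX livers (1.86-fold). Among intact mice the difference was 1.02 ± 0.38 and among GDX mice 0.77 ± 0.35. The gene is X-linked. Of 432 X-linked genes tested 21.1% were higher in XX livers, against 23.5% of autosomal genes.

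Cd24a and Tff3 went the other way. Cd24a, found on progenitors, B cells and immature blood cells, ran from 1.34 to 6.69 CPM in XX mice (median 3.20 CPM) and from 1.83 to 11.1 CPM in XY mice (median 5.49 CPM). It was lower in XX livers by 0.54 ± 0.14 log2 units, a fold of 0.688 (adjusted p = 0.00172). The difference was -0.68 ± 0.20 in intact mice (adjusted p = 0.0191) and -0.40 ± 0.19 in GDX mice (adjusted p = 0.104). Near-identical copies of Cd24a exist in the mouse genome. Multimapping reads were not counted on genes, so its counts can miss shared reads and are uncertain.

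Tff3 was the sparsest gene tested, with 260 reads in 48 livers and at least 10 reads in 5 of them. Its medians were 0.646 CPM in XY Te Intact, 0.274 CPM in XY Ov Intact and 0.189 CPM in XX Te Intact livers, and 0 in XX Ov Intact livers. All 5 were XY livers and 4 of them intact, so Tff3 entered the tests through the livers where it was high, and its fitted differences are given as a description with no p. They were -1.89 ± 0.56 log2 units for XX minus XY livers over all mice, -3.13 ± 0.65 in intact mice and -0.64 ± 0.86 in GDX mice. The highest liver, from XY Te Intact, held 6.22 CPM.

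Meg3 showed no difference between XX and XY livers past the threshold (-0.11 ± 0.28, 95% interval -0.66 to 0.43, adjusted p = 0.793). It was -0.93 ± 0.39 among intact mice (adjusted p = 0.123) and 0.70 ± 0.39 among GDX mice (adjusted p = 0.169). The gap between those values was 1.63 ± 0.55. It is also the gap between the gonadectomy effects in XX and XY mice, so it is given with no p. Without XY Ov Intact mouse 3, the difference among intact mice was -0.31. In XX Ov GDX livers Meg3 was tight, from 0.689 to 1.17 CPM, whereas XY Te Intact livers ran from 0.196 to 4.15 CPM.

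Counted together, 6 of the 7 tested genes differed between XX and XY livers, in a comparison in which 36.7% of all tested genes did. In XX livers 4 were higher and 2 lower, where 21.9 and 14.8% of all genes were. Tff3, and Gpc3 in part, entered the test through the groups where they were high, so the count is a description. H19, with a median of 15 reads in the 24 XY mice, did not need its high XX livers to enter. Among intact mice 4 of 7 passed (10.7% of all genes), and among GDX mice 3 of 7 (34.3%).

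**Figure D2:**
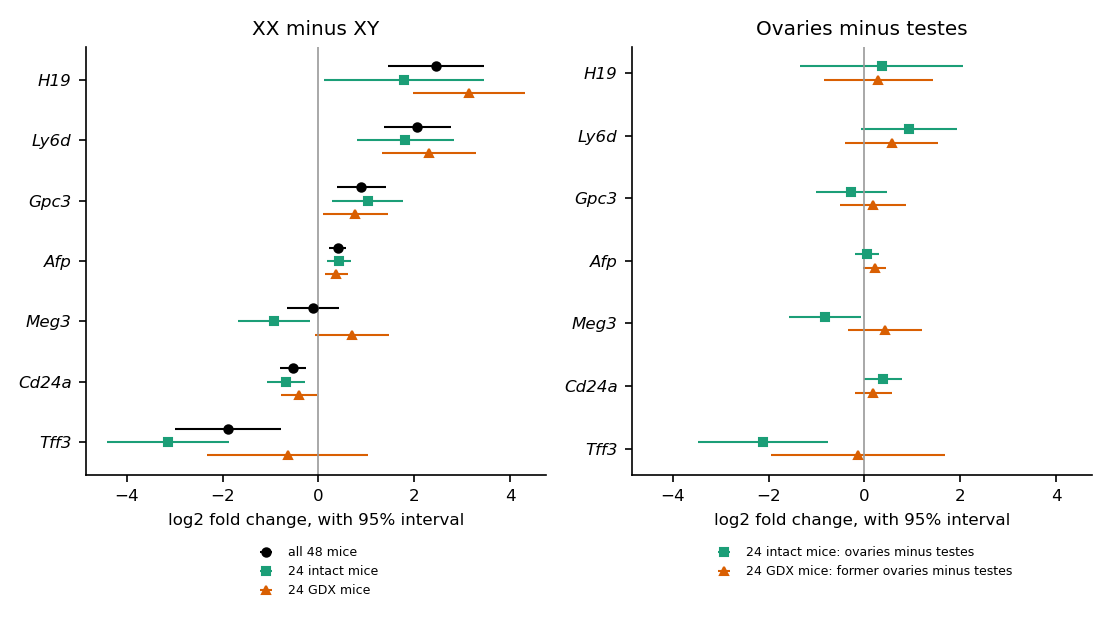
Fitted log2 fold changes with 95% intervals for the 7 tested genes, XX minus XY on the left and ovaries minus testes on the right. H19, Ly6d, Gpc3 and Afp lie above 0 and Cd24a and Tff3 below 0 for XX minus XY over 48 mice, while on the right only Tff3, which has few reads, lies past the threshold in intact mice.

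The next question was whether the type of gonad matters. In intact mice 1 of 7 genes passed the threshold, where 25.3% of all tested genes did. It was Tff3, at -2.12 ± 0.69 log2 units in mice with ovaries against mice with testes, and the count supports nothing, since XY Te Intact livers brought Tff3 into the tests. Without the highest of them the value was -1.39, and without it or without XX Te Intact mouse 6 (-1.92) the gene did not pass. H19 differed by 0.36 ± 0.86 log2 units (95% interval -1.33 to 2.05, adjusted p = 0.787), and by 1.44 without XX Te Intact mouse 2. Afp differed by 0.05 ± 0.13 (95% interval -0.20 to 0.31, adjusted p = 0.790).

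Further genes passed when 1 mouse was left out. Without XX Te Intact mouse 2, Ly6d was 1.5 higher with ovaries (adjusted p = 0.0168) and Cd24a 0.54 higher (adjusted p = 0.0316), against 0.93 ± 0.51 (adjusted p = 0.167) and 0.38 ± 0.20 (adjusted p = 0.142) with it. Without XY Ov Intact mouse 3, the liver with 3.14 CPM of Meg3, Meg3 was lower with ovaries by 1.44 (adjusted p = 0.00231), against -0.82 ± 0.39 (adjusted p = 0.107) with it.

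After gonadectomy none of the 7 genes differed between mice that had carried ovaries and mice that had carried testes (edgeR). Of all tested genes 0.0908% did, and 475 had an unadjusted p under 0.05. The differences were 0.29 ± 0.58 for H19, 0.57 ± 0.49 for Ly6d and 0.22 ± 0.12 for Afp. None of the 7 genes passed the interaction of gonad with chromosomes in intact mice, where 0% of all genes did (989 at an unadjusted p under 0.05). The interactions of gonad and of chromosomes with gonadectomy are differences between the gonadectomy effects that chose the genes. They are therefore a description with no p. None of the 7 genes was past the threshold in either, where 5.6% (gonad) and 2.12% (chromosomes) of all genes were. DESeq2 called 0 of the 7 genes in each of these 4 comparisons too. For H19 the difference in gonadectomy effect between XX and XY mice was 1.36 ± 1.17 (95% interval -0.93 to 3.65). No larger rise in XX than in XY mice is read from it. Without XX Te Intact mouse 2 the difference was 2.44.

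The gonadectomy contrasts themselves chose the genes, and their values follow as a description. H19 was 2.77 ± 0.67 log2 units higher after ovariectomy and 2.83 ± 0.74 after castration. By genotype the H19 value was 4.82 ± 0.94 in XX Ov, 2.14 ± 0.81 in XX Te, 0.71 ± 0.98 in XY Ov and 3.53 ± 1.26 in XY Te mice. The XX Te value was 4.30 without XX Te Intact mouse 2 and 1.45 without XX Te GDX mouse 3. In XY Te all 6 GDX mice lay above all 6 intact mice, from a start near 0, and in XX Ov 5 of 6 did. In XY Ov 3 of 6 did, and in XX Te 2 of 6. These counts are in CPM of library totals. Scaled by the factors of the fits, GDX and intact mice overlapped in XY Te.

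Afp was 0.75 ± 0.13 log2 units higher after ovariectomy and 0.59 ± 0.13 after castration. Its median went from 3.09 to 6.30 CPM in XX Ov, from 3.04 to 5.32 CPM in XX Te, from 2.49 to 4.87 CPM in XY Ov and from 2.41 to 4.51 CPM in XY Te. All 6 GDX mice lay above all intact mice in XX Ov, XY Ov and XY Te, and 4 of 6 did in XX Te. These are CPM of library totals, on which the median of all genes was 0.12 to 0.38 log2 units higher after gonadectomy. Scaled by the factors of the fits, GDX and intact mice overlapped in XY Ov and in XY Te. The scaled medians went from 3.68 to 6.17 in XX Ov and from 3.30 to 5.29 in XX Te. In XY Ov they went from 2.44 to 4.24 and in XY Te from 2.83 to 3.93 CPM. Gpc3 had values of 0.63 after ovariectomy and 0.18 after castration, and Cd24a 0.27 and 0.47. Ly6d stood at -0.15 and 0.21, Meg3 at 0.39 and -0.86, and Tff3 at -0.59 and -2.57. The Meg3 value for castration was -0.36 without XY Te Intact mouse 2. Past the threshold were 5 of 7 genes for castration and 2 of 7 for ovariectomy, where 63.3 and 69.4% of all genes were. Within genotypes 2 of 7 passed in XX Ov, 2 in XX Te, 2 in XY Ov and 4 in XY Te, where 55.1, 37.1, 59.4 and 56.7% of all genes did. The genes were selected on these differences, so nothing is read from these counts. These contrasts run with the share of reads outside genes and with the weeks on the diet, and their part cannot be told apart from that of gonadectomy.

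**Figure D3:**
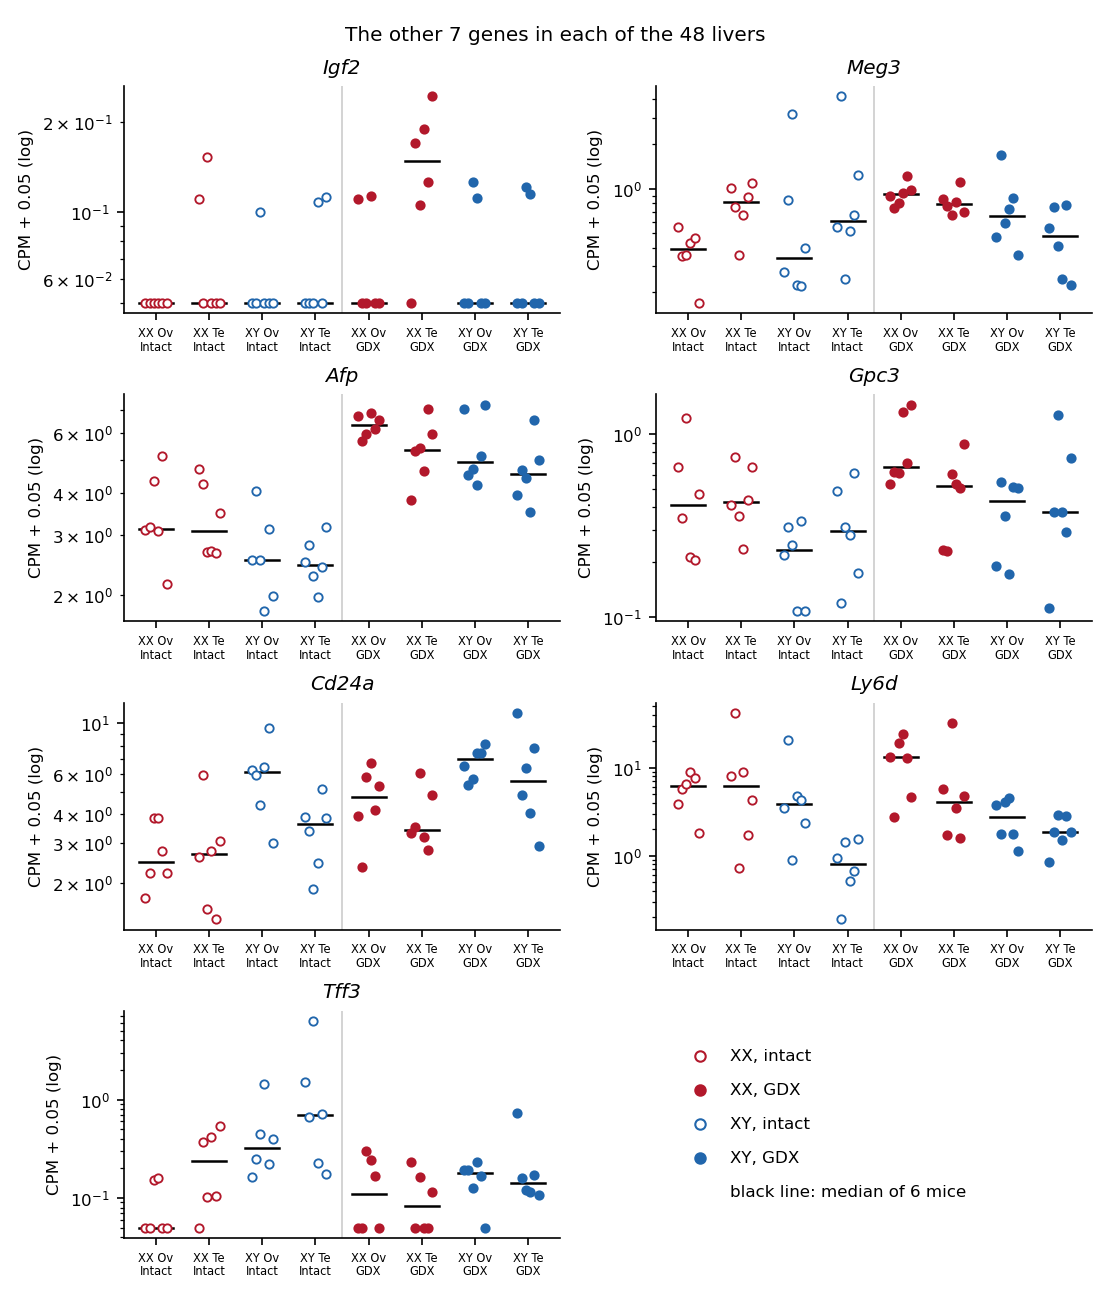
CPM plus 0.05 on a log axis for the other 7 genes in each mouse, by group, with medians of 6 mice as black lines. In these CPM of library totals the Afp median is higher in GDX than in intact mice of each genotype, with overlapping ranges in XX Te. Ly6d and Meg3 hold single high mice, and Igf2 lies at or near 0 throughout.

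Igf2 stayed near 0 in the livers with much H19. Of its 21 reads, 9 fell in XX Te GDX livers, 5 of which held at least 1. The XX Te GDX and XX Ov GDX groups, in which H19 reached 30.6 and 65 CPM, had Igf2 at no more than 0.193 and 0.0637 CPM, at or under the floor of 3 reads. Strand was not stated for the counting, so reads from antisense transcripts at this locus cannot be set apart.

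Because the livers of one group differed so much, the genes were also compared mouse by mouse, as deviations of log2 CPM from the mean of the own group. H19 went with Cd24a (Pearson's r = 0.61, permutation p = 4e-05, adjusted p = 0.00112 over 28 pairs; Spearman's rho = 0.54) and with Ly6d (r = 0.62, permutation p = 1.4e-04, adjusted p = 0.00196; rho = 0.54). Leaving out the 2 mice with the most extreme H19 deviations gave r = 0.46 and 0.49. Within the 24 GDX mice r was 0.75 and 0.65, both past the threshold, and within the 24 intact mice 0.46 and 0.63, neither past it. H19 and Tff3 had r = 0.45 (rho = 0.51), which also passed over all mice and in GDX mice, but with under 3 Tff3 reads in most GDX livers this value follows single reads.

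H19 and Afp had r = -0.05 between mice (permutation p = 0.738), and H19 and Gpc3 had r = 0.14 (permutation p = 0.327). Cd24a and Ly6d had r = 0.45 (permutation p = 0.00579, adjusted p = 0.0405), which without XX Te Intact mouse 2 was 0.35 (adjusted p = 0.146). Igf2 and Tff3 had r = -0.40 (permutation p = 0.00854, adjusted p = 0.0478), but with at most 3 Igf2 reads a mouse this value follows single reads. In the 5 XX mice with the most H19, Cd24a was among the 3 highest of the 6 mice of the group, and XX Te Intact mouse 2 ranked first of its group for H19, Gpc3, Cd24a and Ly6d.

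**Figure D4:**
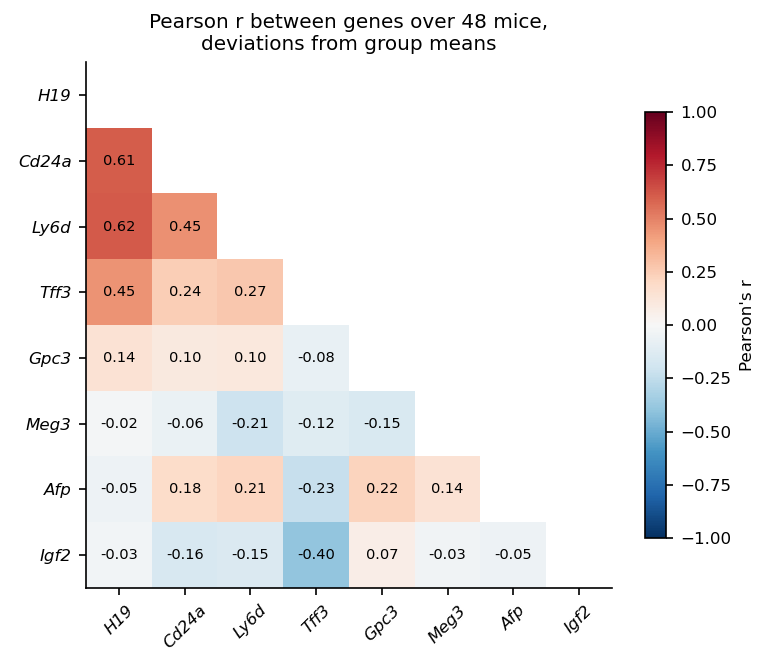
Pearson's r between each pair of the 8 genes over 48 mice, after removing group means. The values of H19 with Cd24a, Ly6d and Tff3 (0.61, 0.62 and 0.45, the last resting on few reads) lie above those with Afp, Meg3 and Igf2, whose r with H19 are between -0.05 and -0.02.

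**Figure D5:**
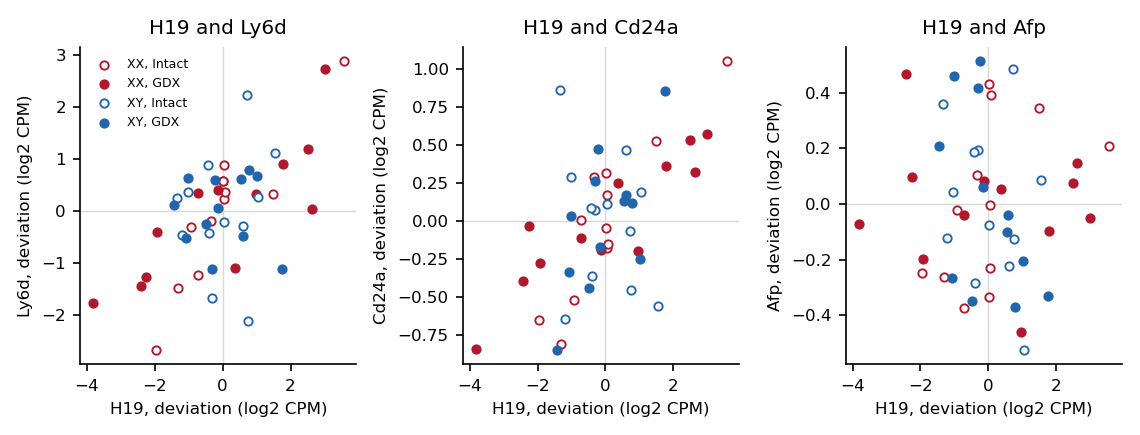
Deviation of each mouse from its group mean in log2 CPM, for H19 on the horizontal axis and Ly6d, Cd24a or Afp on the vertical axis (red XX, blue XY, open intact, filled GDX). Ly6d and Cd24a rise with H19, with r of 0.62 and 0.61, and Afp does not (r = -0.05).

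The 5 genes most like H19 in these deviations, of the 15414 compared, were Olfml3 (r = 0.86), Uap1l1 (r = 0.85), Mfge8 (r = 0.83), Serpinh1 (r = 0.82) and Col1a2 (r = 0.82). Serpinh1 encodes a collagen chaperone and Col1a2 a chain of type I collagen. Anxa5, Cgref1 and Ifi27l2b were most like Ly6d (r = 0.84, 0.83 and 0.82), and Adamts12, Thbs1 and Lims1 most like Cd24a (r = 0.75, 0.74 and 0.71). For Gpc3 they were Sema3c, Pkhd1l1 and Ibtk, for Meg3 Susd4, Casd1 and Dcaf12, and for Afp, with r no higher than 0.56, Gm15950, A730017L22Rik and Itgb2l. These are the highest values of many and carry no p.

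Markers of other liver cells moved with H19 as well. Over 70 relations of 7 genes with 10 summed marker lists, H19 had r = 0.82 with cholangiocyte markers (permutation p = 1e-05, the smallest the permutations can give, adjusted p = 3.50e-04; rho = 0.75; 0.74 without the 2 most extreme mice). With stellate and mesenchymal markers it had r = 0.80 (permutation p = 1e-05, adjusted p = 3.50e-04; rho = 0.68) and with cycling cell markers r = 0.55 (permutation p = 7e-05, adjusted p = 8.17e-04; rho = 0.55). Its r was 0.42 with Kupffer cell and 0.41 with B cell markers (adjusted p = 0.0455 and 0.0365, permutation test), and neither passed with rho. Cd24a went with cycling cell markers (r = 0.61), stellate markers (r = 0.59), neutrophil markers (r = 0.51), cholangiocyte markers (r = 0.51) and B cell markers (r = 0.50). Ly6d went with cholangiocyte markers (r = 0.63), cycling cell markers (r = 0.51) and stellate markers (r = 0.45). Of these, Cd24a with cholangiocyte markers and Ly6d with stellate markers did not pass with rho, nor did the sparse Tff3 with stellate markers (r = 0.35). No relation of Afp or Gpc3 with a list passed.

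The marker lists also differed between XX and XY mice, beside the genes described. The summed cholangiocyte markers ran from 27.6 to 175 CPM in XX and from 24.8 to 67.4 CPM in XY livers, and 3 of 6 tested were higher in XX livers (among them Spp1 and Epcam, by 1.11 and 0.84 log2 units). The stellate list ran from 245 to 796 CPM in XX and from 263 to 679 CPM in XY livers, with 1 of 9 higher (Col1a1, 0.95 ± 0.28). Lower in XX livers were 7 of 7 tested neutrophil markers, among them Mpo, Ngp and Ltf at -5.10, -4.95 and -4.33 log2 units. The neutrophil list summed to between 0.229 and 31.3 CPM in XX and between 1.22 and 753 CPM in XY livers.
Also lower in XX livers were 6 of 6 cycling cell, 5 of 6 Kupffer cell, 4 of 6 B cell, 3 of 4 erythroid, 2 of 7 endothelial and 1 of 2 gut and pancreas markers. Of 8 hepatocyte markers none passed in either direction (edgeR). Over all tested genes 21.9% were higher and 14.8% lower. The part of cell makeup in the differences was not tested.

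Lists of related genes set the 8 genes beside the other members of their pathways. Of 32 tested imprinted genes other than the 8, 10 were higher and 2 lower in XX livers, with a median of 0.11 log2 units against 0.05 over all genes. Together 12 of 32 passed, beside 36.7% of all tested genes. The furthest were Rasgrf1, a guanine exchange factor (-3.25 ± 0.34), Tspan32, a tetraspanin of blood cells (-0.87 ± 0.25), and Slc22a3, an organic cation transporter (0.70 ± 0.13). Cdkn1c (-0.01 ± 0.12) and Grb10 (0.09 ± 0.09), both growth restraining and maternally expressed in many tissues, did not pass. Dlk1, the paternally expressed partner of Meg3, had a median of 0 CPM and was not tested.

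Of 14 tested genes of the IGF axis, 4 were higher and 1 was lower in XX livers, beside 21.9 and 14.8% of all genes. Igf2bp2, which binds Igf2 mRNA, was 0.47 ± 0.13 higher (adjusted p = 0.00253), Igfbp5 was 0.62 ± 0.21 higher (adjusted p = 0.0190) and Igfbp2 was lower by 0.47 ± 0.17 (adjusted p = 0.0220). Igf2r, the receptor that clears IGF2, differed by 0.27 ± 0.12 (adjusted p = 0.0728), and Igf1r by -0.19 ± 0.12 (adjusted p = 0.218). Igf2bp1 and Igf2bp3 were too low to test.

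Among 24 tested regulators, 7 were higher and 6 lower in XX livers, beside the same 21.9 and 14.8%. Those that moved most were Dppa3 and Uhrf1, which guard DNA methylation (-1.98 ± 0.33 and -1.08 ± 0.22), and Rb1, a brake on the cell cycle (-0.59 ± 0.07). The regulators named for these loci did not pass: Zhx2 differed by 0.05 ± 0.05 (adjusted p = 0.405), Zbtb20 by 0.19 ± 0.10 (adjusted p = 0.151) and Ctcf by 0.00 ± 0.04 (adjusted p = 0.993). Lpl, which like H19, Afp and Gpc3 is known as a gene repressed by Zhx2, was lower in XX livers by 1.07 ± 0.19 (adjusted p = 1.17e-05). Its difference was -1.45 ± 0.27 in GDX mice (adjusted p = 2.96e-05) and -0.69 ± 0.27 in intact mice (adjusted p = 0.0926). The part of Zhx2 in any of these differences was not tested.

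Of 9 tested fetal and hepatoblast genes other than the 8, 3 were higher (Spp1, Epcam and Prom1) and 1 was lower in XX livers, beside 21.9 and 14.8% of all genes. Epcam, a surface protein of biliary and progenitor cells, was 0.84 ± 0.17 higher (adjusted p = 1.23e-04), and Sox9, a factor of biliary cells, differed by 0.18 ± 0.14 (adjusted p = 0.341). Epcam, Sox9, Spp1, Krt7 and Krt19 stand on the cholangiocyte list as well. After ovariectomy Zbtb20 was 1.30 ± 0.15 log2 units higher (adjusted p = 8.13e-10) and Zhx2 0.24 ± 0.07 (adjusted p = 0.00149). After castration the values were 0.72 ± 0.15 (adjusted p = 5.81e-05) and 0.18 ± 0.07 (adjusted p = 0.0201).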

How the data were processed

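Liver RNA of 48 mice was sequenced from mRNA libraries (KAPA mRNA HyperPrep, after Trizol extraction). The deposited values are raw counts of reads per gene, made by the authors with STAR 2.7.10a on GRCm39; their notes also list DESeq2 1.36.0. The annotation, trimming and strand setting are not given in the sources used here. The 4 summary lines that name no gene were kept out of library sizes: reads mapped outside genes (the share outside genes used here, 3.47 to 11.3%), and unmapped, multimapping and ambiguous reads (20.3 to 38.0% together).

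The genes and lists were chosen with earlier results of these data known. Groups came from the labels. Genes passing filterByExpr (minimum count 10; 15414 of 55414) entered edgeR 4.0.16 (R 4.3.3): TMM scaling, 8 group means over all 48 mice, robust quasi-likelihood tests and Benjamini-Hochberg adjustment over all tested genes, threshold 0.05. Symbols matched 31020 gene IDs (56.0%). Each mouse is a separate animal; no pair of libraries within a group agreed within sampling noise. Levels are CPM of library totals. Deviations from group means used log2 CPM and 100000 permutations (two-sided), in Python 3.11.15 with numpy 2.4.6, scipy 1.17.1 and pandas 2.3.3. Floors cover counting error only. On simulated counts of 15100 genes for the XX against XY contrast, 99% of changes of 1 log2 unit and 100% of changes of 2 log2 units were recovered, with 14 false calls among 213. The simulation gave every gene the same spread between mice. That spread was smaller than the one fitted for H19, Ly6d, Gpc3, Meg3 and Tff3, so recovery for these genes was not measured.

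Genes named beside the 8 were the 3 with the largest change past the threshold in each list, a list of regulators and partners named whether or not they passed, and those most like each gene, except a few that are not reported here. Alternatives were DESeq2 1.42.0 size factors and Wald test, library totals, 2 other filters, a surrogate variable (sva 3.50.0), the share outside genes as a covariate, only the groups compared, and each mouse left out.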

Additional observations from a re-analysis of the deposited data

Results flagged for a closer look

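In 47 sets of 6 mice, some mouse had at least 10 reads of the gene. In 12 of these sets the highest mouse stood apart from the others by Dixon's 95% critical value. Chance gives about 1 in 20 groups only where values are normally spread. CPM of genes this variable is skewed upward, so that rate does not hold here and the count is a description. XX Te Intact mouse 2 stood apart for H19 (11.1 CPM, next 0.787), for Cd24a (5.87 CPM, next 3.0) and for Ly6d (42.0 CPM, next 9.0). H19 also stood apart in XY Te GDX mouse 1 (6.81 CPM, next 2.73) and in XX Ov Intact mouse 3 (1.75 CPM, next 0.674). Ly6d did so in XX Te GDX mouse 3 (32.6 CPM, next 5.66) and in XY Ov Intact mouse 2 (20.6 CPM, next 4.65). Meg3 did so in XY Te Intact mouse 2 (4.15 CPM, next 1.19) and in XY Ov Intact mouse 3 (3.14 CPM, next 0.789). Tff3 did so in XY Te Intact mouse 3 (6.22 CPM, next 1.45), in XY Ov Intact mouse 4 (1.40 CPM, next 0.399) and in XY Te GDX mouse 1 (0.681 CPM, next 0.122).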

How the results depend on the processing

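The 6 calls between XX and XY livers over all mice were kept in all 48 fits that left out 1 mouse. For Tff3 and Gpc3 this only describes the fits, since both entered the tests mainly through the livers where they were high. Counts of the genes past the threshold moved by more than 1.5 times as follows. Those for castration, ovariectomy, single genotypes and gonad with gonadectomy, here and below, concern the differences on which the genes were selected. They only describe how the fits move. Requiring at least 10 counts in every mouse left only Afp and Cd24a to test, and gave 0 for ovaries against testes, 2 for XX against XY, 2 in intact and 1 in GDX mice, 2 for castration, 1 for ovariectomy and 1 in each genotype. With no filter beyond 1 count there were 2 in intact mice, 3 for castration, 1 in XX Te and 1 in XY Ov. With the share outside genes as a covariate there were 2 for ovaries against testes, 5 in GDX mice and 1 in XY Ov. With only the groups compared there were 0 for ovaries against testes, 2 in intact mice, 5 in GDX mice, 3 for castration, 4 in XX Ov and 1 in XX Te, XY Ov and XY Te each. With 1 surrogate variable there were 3 for castration and 1 in XX Te, and with library totals 4 for ovariectomy, 4 in XX Ov and 1 in XY Ov. Of the 5 co-varying pairs, 3 passed with Spearman's rho, 3 in GDX mice alone and 0 in intact mice alone. The cause was not tested.

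Leaving out 1 mouse gave 0 to 3 genes for ovaries against testes, 3 to 5 for castration, 2 to 3 for ovariectomy, 3 to 5 for XX against XY in intact and 2 to 4 in GDX mice, 2 to 4 for gonadectomy of XX Ov, 1 to 3 for that of XX Te, 1 to 2 for XY Ov mice and 3 to 5 for XY Te mice, 0 to 1 for gonad with gonadectomy and 3 to 6 pairs. Among intact mice, Afp (0.38, adjusted p = 0.0574 without XX Te Intact mouse 1, and likewise without XY Ov Intact mouse 4 or XX Ov Intact mouse 3 or 5) and Cd24a (-0.56, adjusted p = 0.0593 without XY Ov Intact mouse 5) lost their calls without single mice, as Afp did among GDX mice without XY Te Intact mouse 3 (0.29, adjusted p = 0.0608) or XY Ov Intact mouse 6 (0.30, adjusted p = 0.0546). The Meg3 value for gonad with gonadectomy, which is only described, was -1.86 without XY Ov Intact mouse 3. Gpc3, which is only described, passed among GDX mice (1.0) without XY Te GDX mouse 3. Gpc3 also passed among intact mice (1.13 to 1.17) without XX Ov Intact mouse 4 or 5 or XY Te Intact mouse 5, and Cd24a among GDX mice without XY Te GDX mouse 6 or XY Te Intact mouse 3. Among intact mice the Afp call was also lost with library totals (0.42, adjusted p = 0.0564), with no filter (0.42, adjusted p = 0.0607) and with only the groups compared (0.40, adjusted p = 0.0887), and that of Ly6d with no filter (1.80).

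Differences under the threshold changed sign in some fits. With the share covariate these were Tff3 by former gonad (0.0013), Meg3 in XX against XY (0.21) and Afp for chromosomes with gonadectomy (0.087), and with library totals Afp for gonad with chromosomes (-0.040). Leaving out 1 mouse did so for Afp by gonad (-0.0038 to 0.10), H19 (-0.042 to 0.63) and Tff3 (-0.40 to 0.36) by former gonad, Meg3 in XX against XY (-0.21 to 0.20), H19 (-0.28 to 1.15) and Ly6d (-0.25 to 0.93) for gonad with gonadectomy, Afp (-0.15 to 0.0040), Gpc3 (-0.40 to 0.0058) and Ly6d (-0.12 to 1.06) for chromosomes with gonadectomy, and Meg3 (-1.41 to 0.81) and Tff3 (-1.78 to 0.52) for gonad with chromosomes.

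Over all genes, XX against XY gave 3382 higher and 2275 lower calls, and 1208 and 3081 with library totals, which moved the median of all genes among GDX mice from 0.08 to -0.10. Calls for ovaries against testes fell from 3907 to 1694, and for XX against XY in intact mice from 1648 to 819, with only the groups compared. No paired analysis was possible because the labels give each mouse its own number and share none between groups.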
